A study of Mus musculus with 4 samples.

Results

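The 8 genes that encode the classical subunits of the transcription factor AP-1 were followed in mouse kidney after cisplatin. They are Fos, Fosb, Fosl1, Fosl2, Jun, Junb, Jund and Atf3, taken by symbol from a table of read counts for 29190 genes. All 8 were in the table under a single row each, and all 8 passed the filter on low counts. For Fosl1 and Fosb the counts that met the filter came from the cisplatin libraries alone. Ribosomal RNA was removed from total kidney RNA before directional libraries were made. The animals were male C57 mice of 8 weeks. A first group was injected with cisplatin at 30 mg/kg, and a control group with physiological saline. The labels' protocols give 18 mice in 3 groups, with cisplatin injected 24 h or 48 h before death. The sources used here tie neither time to a library and do not say whether mice were pooled. Each group had 2 libraries, which the series' design calls biological replicates, so SDs below describe the spread between 2 libraries. The p-values rest on the same 2 libraries a group, with a spread estimated partly from all tested genes.

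AP-1 is a dimer of basic leucine zipper (bZIP) proteins that binds short DNA elements related to TGACTCA, the TPA response element, or to TGACGTCA, the cyclic AMP response element. JUN proteins can pair with each other, with FOS proteins or with ATF proteins, whereas FOS proteins need a JUN partner. Several of the genes are immediate early genes, transcribed within minutes of a growth factor or stress signal through factors that are already present, and MAP kinases act on both their promoters and their proteins. In the kidney, AP-1 subunits are known to be induced in tubule cells after ischemic or toxic injury.

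Library totals ranged from 20662475 to 27122403 counts. The kidney identity of the libraries was visible in the segment markers. Lrp2, the megalin gene of the proximal tubule, stood at 9114 ± 166 CPM (read counts relative to the library total, scaled by TMM, the trimmed mean of M values; mean ± SD, n = 2) in saline and 1226 ± 42.1 CPM in cisplatin libraries. By edgeR's quasi-likelihood test, with p-values adjusted after Benjamini and Hochberg and a threshold of 0.05, 73.6% of the 17419 tested genes were called in either direction. Of these calls 50.6% were higher, and 68.4% were with library size in place of TMM, a scaling that moved the median log2 fold change of all genes from 0.04 to 0.41. A call alone therefore says little about a gene here, and the position of each member within the distribution of all genes is given beside its change.

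The promoters of 7 members were matched by symbol in a RefSeq table (GRCm38.p6) of windows from 250 bases before to 50 bases after the annotated start. Those of Fos, Jun and Atf3, a representative of each subunit class, are shown over the 250 bases before the start, 5′ to 3′, because the dimers that these genes encode bind elements of this type. Capitals mark matches to TGACG (the first bases of the cyclic AMP response element), to TGACNTCA and to TATAAA. Fosb and Junb are shown around their TGACG match alone.
Fos, chr12:85473640-85473889, plus strand: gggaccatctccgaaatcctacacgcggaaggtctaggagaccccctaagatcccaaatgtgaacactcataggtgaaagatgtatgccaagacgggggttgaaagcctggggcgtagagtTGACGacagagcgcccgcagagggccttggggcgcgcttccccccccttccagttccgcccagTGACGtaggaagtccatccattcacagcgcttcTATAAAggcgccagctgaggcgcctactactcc
Jun, chr4:95052223-95052472, minus strand: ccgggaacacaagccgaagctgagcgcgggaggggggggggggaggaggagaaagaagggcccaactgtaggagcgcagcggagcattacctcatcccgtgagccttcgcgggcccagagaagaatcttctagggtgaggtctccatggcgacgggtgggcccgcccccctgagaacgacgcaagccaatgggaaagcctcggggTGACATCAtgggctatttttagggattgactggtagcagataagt
Atf3, chr1:191183334-191183583, minus strand: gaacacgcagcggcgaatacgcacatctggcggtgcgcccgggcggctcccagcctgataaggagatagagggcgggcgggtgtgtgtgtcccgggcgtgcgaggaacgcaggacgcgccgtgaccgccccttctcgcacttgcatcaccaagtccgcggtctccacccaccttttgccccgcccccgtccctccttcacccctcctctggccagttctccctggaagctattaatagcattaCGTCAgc
Fosb, chr7:19310083-19310123, minus strand: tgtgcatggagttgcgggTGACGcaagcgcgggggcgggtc
Junb, chr8:84978832-84978872, minus strand: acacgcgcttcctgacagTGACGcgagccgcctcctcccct

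On either strand, TGACG was found in 4 of the 7 windows, those of Fos, Fosb, Junb and Atf3, against 20.8% of the 32851 promoter windows in the table, a background not matched for base composition. The match lay at -66 to -62 in Fos, with another at -129 to -125, at -60 to -56 in Fosb and at -106 to -102 in Junb. In Atf3 it lay on the opposite strand, at -7 to -3. TGACNTCA, which includes the full cyclic AMP response element, was found in Jun alone, as TGACATCA at -45 to -38, against 8.83% of all windows. TGACGTCA (1.79% of all windows), TGANTCA (7.81%) and the CArG box bound by SRF (1.63%) matched none of the 7. Sequence outside these windows was not searched, so sites lying further upstream could not have been found. The lack of a CArG box match therefore does not extend to the rest of the Fos promoter. TATAAA was found in Fos at -33 to -28 and in Junb at 1 to 6, against 13.6% of all windows, and the RefSeq start of Junb lies 30 bases upstream of the GENCODE start. The windows of Jund and Fosl2 held no match to any of these motifs. The Jund window is set on a start 1210 bases upstream of the GENCODE gene start, the Fosl2 window 671 bases from it, and the Atf3 window 34706 bases from the most distal GENCODE start. A match describes the letters of the window and was not tested for binding. The motifs were chosen after the sequences had been read.

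Transcripts of all 8 members rose after cisplatin, 7 of them at least 2-fold, and in none did the libraries of the groups overlap. Among all tested genes 37.2% were called higher and 36.4% lower, 19.2% were called higher with at least a 2-fold change and 7.14% with at least a 4-fold change. Groups did not overlap, with cisplatin higher, in 44.7%. The median log2 fold change (cisplatin over saline) was 2.69 over the members and 0.04 over all tested genes. Fitted fold changes ran from 1.85 for Jund to 268 for Fosl1, and the 3 largest belonged to Fosl1, Fosb and Atf3, the members with the lowest saline FPKM. The saline level is the divisor of the fold change, so a low level by itself favours a large value. Fosl1 and Fosb also met the filter through their cisplatin counts alone. The plot of CPM by library shows levels spaced more widely in saline than after cisplatin.

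**Figure D1:**
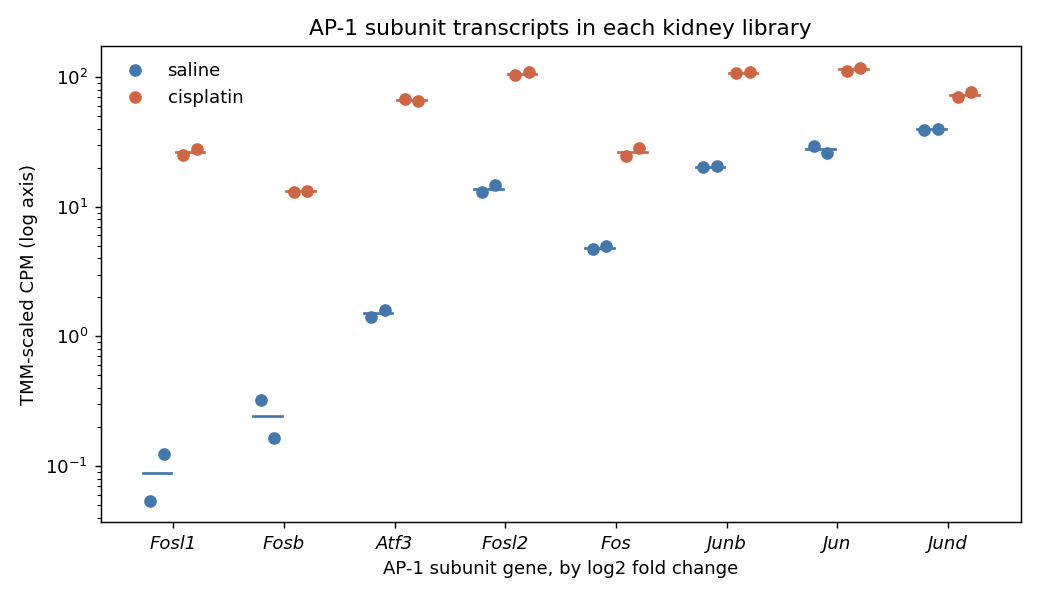
TMM-scaled CPM (log axis) of the 8 AP-1 subunit genes in each library, ordered by log2 fold change, with points for the 2 libraries of a group and a line at their mean. Saline means run from 0.0885 CPM for Fosl1 to 39.6 CPM for Jund, cisplatin means from 13.1 CPM for Fosb to 115 CPM for Jun, and the groups overlap in no member.

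In these bulk libraries, fewer cells of a type and less RNA per cell cannot be told apart, and markers of several cell types moved with the members. For comparison with the counts below, 37.2% of all tested genes were called higher and 36.4% lower. All 8 fibroblast and mural markers rose, their summed level going from 462 to 477 CPM in saline to 1498 to 1499 CPM in cisplatin libraries. Of 8 macrophage markers 7 rose and Csf1r fell, with sums of 89.8 to 99.98 and 246 to 262 CPM. The fall of Csf1r was not called with library size alone. All 4 tested neutrophil markers rose, with list sums of 0.779 to 1.30 and 18.1 to 19.8 CPM, and the defining markers Ly6g, Mpo and Camp were at 0 in both saline libraries and at no more than 0.281 CPM on average after cisplatin. The 4 tested markers had at most 11 counts in a saline library and would not have met the filter on low counts from saline alone. Their higher calls were therefore nearly fixed in advance. Elane was not found by symbol among the counted genes. Among 8 endothelial markers 5 rose and Kdr and Ehd3 fell (0 fell with library size alone), with sums of 618 to 619 and 803 to 819 CPM. Of 7 tested T and B cell markers 2 rose (Cd4 and Cd79a), with list sums of 4.47 to 5.68 and 6.17 to 6.83 CPM. Cd4 and Cd79a likewise met the filter only with their cisplatin counts. Of 10 kidney segment markers 7 fell and 3 rose (Nphs1 and Aqp2 among them), with sums of 16602 to 17007 and 3955 to 4055 CPM. The part of these shifts in the results for AP-1 genes was not tested.

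Fosl1 (ENSMUSG00000024912.5, chromosome 19, 5447547 to 5455946, plus strand, GRCm38), which encodes FRA-1, a FOS protein without the transactivation domain of FOS itself, had 1 and 3 counts in saline replicates 1 and 2 and 590 and 726 counts in cisplatin replicates 1 and 2. In saline it was thus at or under the floor of 3 counts, and after cisplatin it stood at 24.9 and 28.0 CPM. The ratio of summed, scaled counts was 284, with an exact 95% counting interval of 111 to 1045. Its fitted log2 fold change was 8.07 (SE 0.25; adjusted p = 3.19e-16 by the edgeR test with Benjamini-Hochberg adjustment), a value that 41 of the tested genes (0.235%), itself included, reached or exceeded. This SE, derived from the F statistic of the test, is far narrower than the counting interval and understates the uncertainty. Without saline replicate 2 the fitted value was 8.79, a change of 1.65 times. The protein-coding gene Ccdc85b overlaps Fosl1 over 2767 bases on the opposite strand. The use of strand in counting is unknown here, so reads of such pairs cannot be told apart. Ccdc85b had 65 and 92 counts in saline and 105 and 131 counts in cisplatin libraries.

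Fosb (ENSMUSG00000003545.2, chromosome 7, 19302696 to 19310051, minus strand), a close relative of Fos known for a short, stable splice form in neurons, had 6 and 4 counts in the saline and 310 and 341 counts in the cisplatin libraries. On the CPM scale these were 0.325 and 0.164 against 13.1 and 13.2 (replicate 1, then replicate 2, here and below). Both cisplatin libraries lay far above both saline libraries, with a ratio of summed counts of 56.2 (95% counting interval 30.4 to 118). The log2 fold change was 5.78 (SE 0.26; adjusted p = 1.17e-13 by the same test), reached by 0.758% of tested genes. As for Fosl1, the SE is narrower than the counting interval and understates the uncertainty. On the FPKM scale, which accounts for length, Fosb had the lowest cisplatin level of the 8 at 2.44 and 2.41.

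Fosl2 (ENSMUSG00000029135.10, chromosome 5, 32135801 to 32157842, plus strand), which encodes FRA-2, was measured at 12.9 and 14.8 CPM in saline and at 103 and 109 CPM in cisplatin libraries. Both cisplatin libraries lay well above both saline libraries. The log2 fold change was 2.94 (SE 0.08; adjusted p = 1.78e-17), and 3.36% of tested genes changed by as much or more. Fos (ENSMUSG00000021250.11, chromosome 12, 85473890 to 85477273, plus strand), the prototype immediate early gene, stood at 4.71 and 4.96 CPM in saline and at 24.5 and 28.3 CPM in cisplatin libraries, which were again the higher pair without overlap. Its log2 fold change was 2.45 (SE 0.12; adjusted p = 6.62e-13), the smallest of the FOS family, and 4.70% of tested genes reached it. No other gene of GENCODE M21 overlaps Fos, Fosb or Fosl2.

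Junb (ENSMUSG00000052837.5, chromosome 8, 84974484 to 84978718, minus strand), which often restrains growth and counteracts JUN, stood at 20.1 and 20.7 CPM in saline and at 107 and 110 CPM in cisplatin libraries. The difference between groups was many times the spread within them, with a log2 fold change of 2.41 (SE 0.06; adjusted p = 3.61e-17), reached by 4.83% of tested genes. Prdx2, an abundant peroxiredoxin gene on the opposite strand, overlaps the 3′ end of Junb over 351 bases. Its counts were lower after cisplatin, at 3058 and 4206 in saline and 2518 and 2596 in cisplatin libraries.

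Jun (ENSMUSG00000052684.4, chromosome 4, 95049034 to 95052222, minus strand), the founding member and the main target of the JUN N-terminal kinases, was at 29.6 and 26.0 CPM in saline and at 111 and 118 CPM in cisplatin libraries. The cisplatin libraries were the higher ones, with a spread far below the gap between groups. Its log2 fold change was 2.05 (SE 0.07; adjusted p = 8.18e-16), reached by 6.72% of tested genes. The antisense gene Junos overlaps its 5′ part over 689 bases and had between 8 and 21 counts per library, against 547 or more for Jun.

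Jund (ENSMUSG00000071076.5, chromosome 8, 70698949 to 70700616, plus strand) is the JUN gene that quiescent cells express and is the least inducible of the family. It stood at 39.1 and 40.0 CPM in saline and at 69.6 and 76.6 CPM in cisplatin libraries. The groups stood closer in ratio than for any other member, still without overlap. The log2 fold change of 0.89 (SE 0.07; adjusted p = 3.63e-10) was the smallest of the 8, and 22.0% of all tested genes reached that value. Its change passed 2-fold in 4 alternative analyses, with log2 fold changes of 1.25 with library size alone, 1.002 with upper-quartile scaling and 1.145 and 1.062 with limma-trend on FPKM at pseudocounts of 0.1 and 1. Gm11175, an antisense gene within Jund, had between 10 and 19 counts per library.

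Atf3 (ENSMUSG00000026628.11, chromosome 1, 191170296 to 191218039, minus strand) encodes a stress-induced bZIP protein that represses as a homodimer and can activate together with JUN. It had 26 and 39 counts in saline and 1594 and 1684 counts in cisplatin libraries, or 1.41 and 1.60 against 67.2 and 64.9 CPM. The ratio of summed counts was 43.6 (95% counting interval 34.1 to 56.6), and the groups lay far apart. Gm24748, a short RNA gene on the opposite strand, had at most 1 count per library. The log2 fold change was 5.44 (SE 0.12; adjusted p = 2e-18), reached by 0.861% of tested genes. Here too the SE is narrower than the counting interval.

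**Figure D2:**
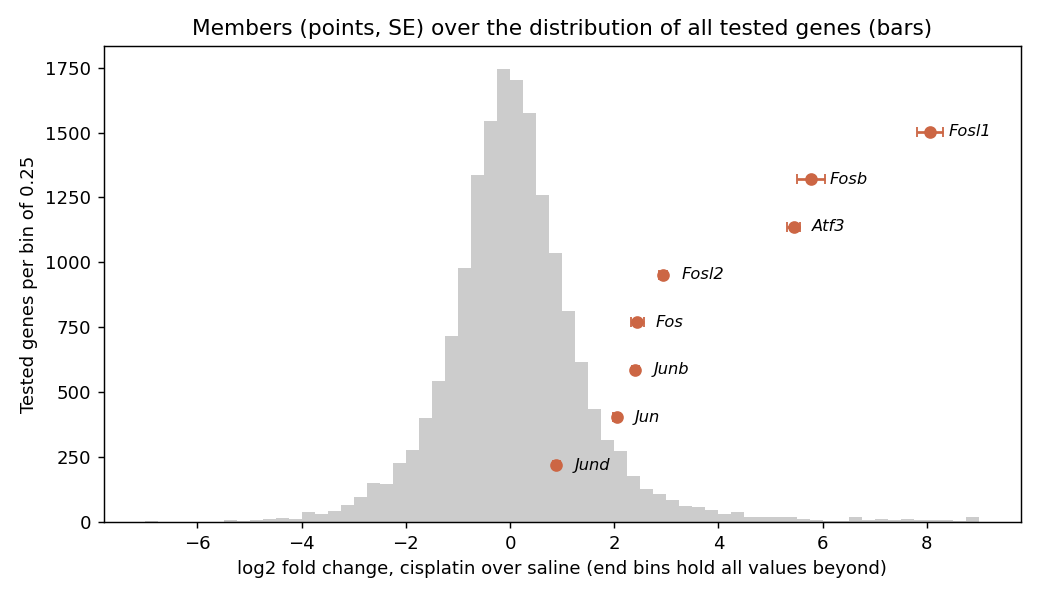
Log2 fold changes of the 8 members (points, with SE bars, at arbitrary heights) over a histogram of the log2 fold changes of all 17419 tested genes (bars, genes per bin of 0.25). Jund, at 0.89, lies within the main body of the distribution, and Atf3, Fosb and Fosl1, at 5.44, 5.78 and 8.07, lie in its far right tail. The SE bars of Atf3, Fosb and Fosl1 are narrower than their counting intervals and understate the uncertainty.

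The members did not rise in proportion. Ratios of 2 members' counts within a library do not depend on scaling between libraries, and they were compared for neighbours in the order of fold change. The member with the larger fitted change was always the numerator, so the direction of each shift was set by that order. Only its size and the overlap of the groups are read here. The log2 ratio of Fosl1 to Fosb was 0.928 and 1.09 in cisplatin libraries and -2.58 and -0.415 in saline libraries, and that of Atf3 to Fosl2 was -0.621 and -0.750 against -3.19 and -3.21. Fosl1 thus gained on Fosb, though on few saline counts, and Atf3 gained on Fosl2. Fosl2 gained on Fos, at 2.07 and 1.95 against 1.45 and 1.57. Jun gained on Jund, at 0.676 and 0.627 against -0.402 and -0.622, and Junb gained slightly on Jun, at -0.0598 and -0.108 against -0.560 and -0.330. Fos and Junb kept their ratio within the spread, at -2.12 and -1.96 in cisplatin and -2.09 and -2.06 in saline libraries. The ratio of Fosb to Atf3 also overlapped between groups, at -2.36 and -2.30 against -2.12 and -3.29. With 2 libraries a group, no exact permutation test of such a ratio can reach a p under 0.05, and none was run.

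Levels of different genes were compared as FPKM (fragment counts scaled to transcript length and library depth), from the table deposited by the authors. In saline the order was Jund (7.91 ± 0.665 FPKM, mean ± SD, n = 2), Junb (6.38 ± 0.573), Jun (5.00 ± 0.113), Fos (1.32 ± 0.141), Fosl2 (1.22 ± 0.198), Atf3 (0.405 ± 0.0636), Fosb (0.040 ± 0.0141) and Fosl1 (0.030 ± 0.0141). The ranges of Fos and Fosl2 overlapped, as did those of Fosb and Fosl1, and the other neighbours did not. After cisplatin Junb came first (40.8 ± 0.304 FPKM), followed by Jun (24.9 ± 0.778), Atf3 (21.3 ± 0.792), Jund (17.6 ± 0.969), Fosl2 (11.3 ± 0.297), Fosl1 (10.7 ± 0.757), Fos (8.68 ± 0.764) and Fosb (2.43 ± 0.0212), with an overlap of ranges for Fosl2 and Fosl1 alone. Jund therefore went from the first place to the fourth on this scale, and Atf3 from the sixth to the third.

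The summed FPKM of the 8 members was 21.2 and 23.4 in saline and 135.5 and 139.8 in cisplatin libraries, a ratio of means of 6.17. JUN family transcripts made up 86.5 ± 0.883% of this sum in saline and 60.5 ± 0.147% after cisplatin, while the FOS family went from 11.7 ± 0.722% to 24.0 ± 0.772% and Atf3 from 1.81 ± 0.161% to 15.5 ± 0.919%. Of the same sum over all 8 members, Jund made up 35.5 ± 0.552% in saline and 12.8 ± 0.42% after cisplatin, and the share of Junb stood at 28.6 ± 0.612% and 29.6 ± 0.436%. Fosl1 held 0.133 ± 0.0543% in saline and 7.79 ± 0.377% after cisplatin, close to the 8.18 ± 0.0342% of Fosl2. The summed FOS family FPKM was 0.128 and 0.142 times the summed JUN family FPKM in saline and 0.389 and 0.406 times in cisplatin libraries. These shares describe transcripts, and no protein was measured.

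**Figure D3:**
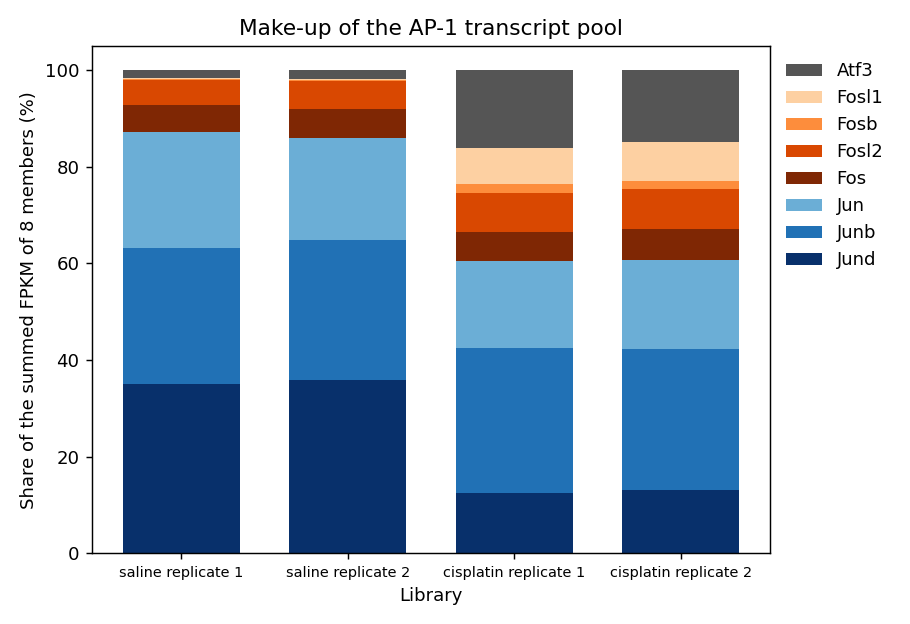
Share of each member in the summed FPKM of the 8 members (percent, stacked bars) in each of the 4 libraries, with JUN genes in blue, FOS genes in orange and brown, and Atf3 in grey. JUN genes fill 85.9 to 87.1% of the saline bars and 60.4 to 60.6% of the cisplatin bars.

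The position of Jund in this order depends on the length assigned to it. Relative to Jun, whose single exon spans 3189 bases, the deposited FPKM values imply a length of 2878 bases for Jund, equal to the 2878 bases of the RefSeq gene on chromosome 8 from 70697739 to 70700616, whereas the GENCODE M21 exons cover 1668 bases. With counts per kilobase of GENCODE exons Jund held 52.1% of the pool in saline and 22.5% after cisplatin, against 24.2% for Junb after cisplatin. Its loss of share thus stood with either length, while its rank after cisplatin moved from the fourth to the second. Other places after cisplatin also depended on length. With counts per kilobase Atf3 held 15.8%, below both Jund and Jun (18.5%). Fosl2, at 5.63%, lay below Fosl1, at 6.67%, and Fos, at 5.76%.

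By the rule for likeness (smallest root mean square difference of gene-centred log2 CPM over the 4 libraries, among 11543 genes averaging 5 CPM or more), the gene nearest to Fosl1 was Cdkn1a, which encodes the cell cycle inhibitor p21, at 1.89 and 2.46 CPM in saline and 316 and 344 CPM in cisplatin libraries (difference 0.0846). Nearest to Atf3 was Havcr1, the KIM-1 injury marker gene (4.11 and 4.43 against 166 and 169 CPM; difference 0.0689). Egr2, a zinc finger immediate early gene, was nearest to Fosb (difference 0.221), and Ifrd1 to Fosl2 (0.0405). Adm, the adrenomedullin gene, was nearest to Fos (0.0342), Actn1, the alpha-actinin gene, to Junb (0.0258), Pgd, a pentose phosphate pathway enzyme gene, to Jun (0.032) and Rasgef1b to Jund (0.0104). With 4 libraries in 2 groups this likeness reflects mainly the size of the group difference, and it carries no test. The log2 CPM values included a prior count of 2, which compresses changes from low counts such as those of Fosl1 in saline. The fitted log2 fold changes were 8.07 for Fosl1 and 7.22 for Cdkn1a, so their small difference here does not mean equal changes.

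The other AP-1 type bZIP genes were followed as a list of 11, of which 8 rose and 2 fell (8 and 1 with library size alone), with a median log2 fold change of 0.86. Calls over all tested genes were 37.2% higher and 36.4% lower. This list and those below were chosen with earlier results of these data known. Here and below, the genes with values are among the 4 of highest mean CPM in a list unless stated, and genes named without values are those behind a small count, chosen after their values were seen. Batf2 did not pass the test. Batf and Batf3, which rose, met the filter on low counts through their cisplatin counts alone. Maf, a large MAF protein gene, stood at 291 ± 7.59 CPM (SD, n = 2) in saline and 41.3 ± 0.435 CPM after cisplatin, and its log2 fold change was -2.82 (SE 0.06; adjusted p = 2.31e-18). Maf contributed most of the counts of the list in saline, and the summed CPM of the list was 476 to 489 in saline and 380 to 383 after cisplatin. The small MAF genes, whose proteins lack a transactivation domain, rose, Mafk from 28.2 ± 2.60 to 113 ± 2.24 CPM and Mafg from 51.4 ± 0.0222 to 70.5 ± 3.91 CPM. Atf2, whose protein pairs with JUN, fell from 73.1 ± 1.17 to 52.5 ± 0.248 CPM, a fall that was not called with library size alone. Maff, a small MAF gene named after its values were seen, rose by 4.91 on the log2 scale (SE 0.13), with 1.40 ± 0.00971 CPM in saline and 42.1 ± 0.954 CPM after cisplatin.

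Other immediate early genes rose in 9 of 9 tested cases, with a median log2 fold change of 2.33. Egr2 and Nr4a3 met the filter on low counts through their cisplatin counts alone, so their higher calls were nearly fixed in advance. Over all tested genes 37.2% were called higher. Egr3 was not tested because of its low counts, and Egr4 was not found by symbol among the counted genes. Ier5 rose from 8.64 ± 0.818 to 98.0 ± 0.221 CPM, Egr1 from 14.2 ± 0.0871 to 71.8 ± 7.19 CPM, Ier2 from 6.85 ± 1.64 to 21.3 ± 1.10 CPM and Ier3 from 21.3 ± 1.64 to 40.9 ± 2.0 CPM. Whether the AP-1 members and these genes differ in their change was not tested.

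Transcripts of the kinases upstream of AP-1 were called in both directions, as were those of all tested genes, of which 37.2% were higher and 36.4% lower. In the JNK pathway list 5 of 13 rose (Map2k7, Map3k1, Map3k11, Map3k12 and Mapk8ip3) and 4 fell (Mapk9, Map3k5, Map3k13 and Mapk8ip1), against 8 and 4 with library size alone, and the median was -0.11. The 38.5% called higher lay near the share of all tested genes, so the count is no result about this list. Mapk8, which encodes JNK1, did not pass the test. Map3k1, a kinase at the top of the cascade, rose from 78.5 ± 3.47 to 118 ± 4.66 CPM, and Map3k5, the stress kinase ASK1, fell from 80.8 ± 6.34 to 41.5 ± 1.82 CPM. Map3k7, which encodes TAK1, stood at 87.0 ± 4.50 and 80.7 ± 6.13 CPM (adjusted p = 0.118), and the JNK kinase gene Map2k4 at 55.6 ± 0.147 and 59.5 ± 0.563 CPM (adjusted p = 0.155 by the same edgeR test).

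In the p38 list 7 of 10 rose and 3 fell (Mapk14, Map2k6 and Rps6ka5), against 7 and 2 with library size alone, and the median was 0.65. The higher calls made up 70.0% of this short list. Mapk14, which encodes p38 alpha, fell from 106 ± 0.402 to 45.5 ± 0.826 CPM, while the p38 kinase gene Map2k3 rose from 14.4 ± 2.0 to 66.1 ± 7.01 CPM. The substrate kinases Mapkapk2 and Mapkapk3 rose, from 79.1 ± 5.72 to 116 ± 1.34 CPM and from 12.7 ± 1.11 to 36.2 ± 1.69 CPM. In the list of the ERK pathway and of the SRF, TCF and CREB factors that act on the Fos promoter, 6 of 16 rose and 6 fell, against 10 and 1 with library size alone (median -0.01). The 37.5% called in each direction lay next to the 37.2% and 36.4% of all tested genes, so these counts set the list apart in neither direction. Braf, which encodes a kinase of this cascade, fell from 106 ± 0.693 to 63.9 ± 2.0 CPM. Rps6ka3, which encodes the ERK-activated kinase RSK2, stood at 101 ± 4.35 and 106 ± 0.00987 CPM (adjusted p = 0.221).

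Genes that govern the turnover of AP-1 proteins and messengers rose in 5 of 11 cases (Fbxw7, Zfp36, Zfp36l1, Elavl1 and Khsrp) and fell in 3 (Itch, Rfwd2 and Usp28), against 7 and 2 with library size alone, and the median was 0.14. The 45.5% called higher, in a list of 11, lay near the 37.2% of all tested genes and is no result about the list. Itch and Rfwd2, which encode ubiquitin ligases that target JUN, fell, Itch from 249 ± 2.59 to 94.4 ± 1.12 CPM and Rfwd2 from 98.1 ± 4.84 to 57.0 ± 0.929 CPM. Zfp36l1, whose protein promotes decay of messengers with AU-rich elements, rose from 48.0 ± 0.0858 to 171 ± 3.15 CPM. Elavl1, which encodes the stabilising protein HuR, rose by 0.18 on the log2 scale, from 67.2 ± 2.19 to 76.3 ± 6.26 CPM (adjusted p = 0.0137).

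Of 25 genes with AP-1 sites known from textbook promoters, 19 rose, all at least 2-fold, and 3 fell, Mmp13, Ccnd1 and Vegfa (21 and 3 with library size alone). Among those that rose, Areg, Ccl2, Il6, Ivl, Mmp3, Mmp9, Mmp10, Sprr1a, Sprr1b and Timp1 would not have met the filter on low counts from saline alone. The higher calls of these genes were nearly fixed in advance, so the count of risers is no result about the list. Over all tested genes 19.2% were called higher with at least a 2-fold change, and 36.4% were called lower. The median log2 fold change of the 25 genes was 3.38, and it was 3.38 also with the 4 genes that had 0 saline counts set to their lower bound. Spp1, the osteopontin gene, rose from 946 ± 1.94 to 3401 ± 125 CPM. The urokinase gene Plau stood at 585 ± 22.7 and 561 ± 4.22 CPM (adjusted p = 0.335), the cyclin D1 gene Ccnd1 fell from 263 ± 0.451 to 174 ± 3.10 CPM, and Vegfa fell from 156 ± 2.25 to 91.7 ± 3.23 CPM. The cytokine gene Il6 and the cornified envelope gene Ivl, named after their values were seen, had 0 counts in both saline libraries. They had 114 and 141 counts and 179 and 264 counts in the cisplatin libraries, at least 73.4-fold and 127-fold higher with a floor of 3 counts over the saline group. Binding of AP-1 to these genes was not measured.

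**Figure D4:**
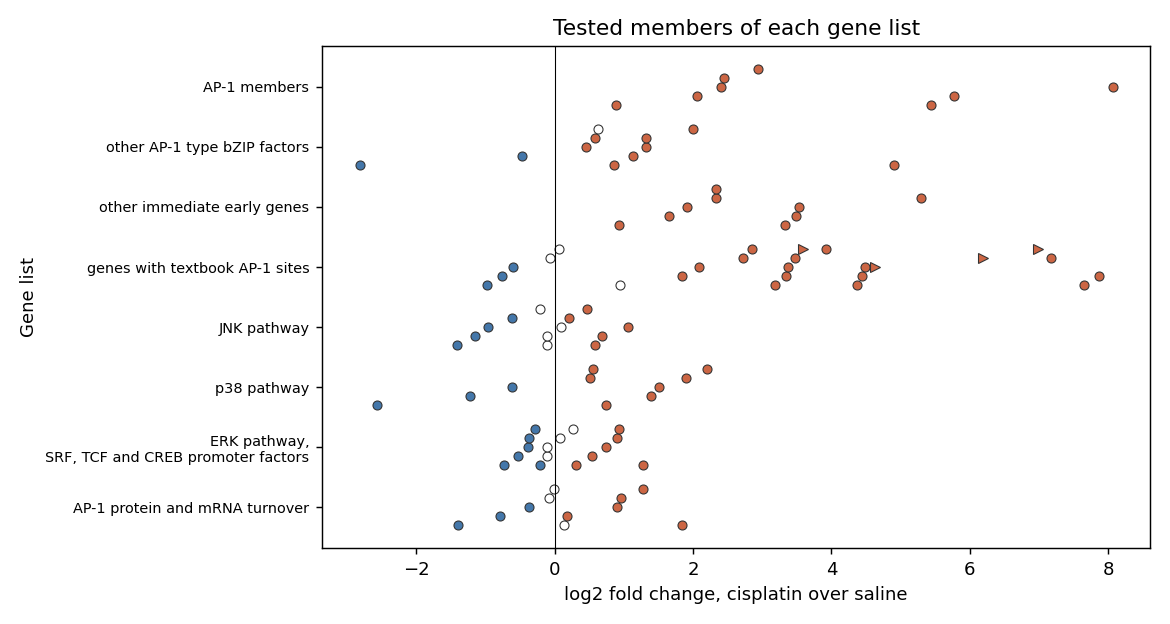
Log2 fold change (x axis) of each tested gene in 8 gene lists (rows), in orange where called higher, blue where called lower and white where the test was not passed, with triangles at the lower bound for genes with 0 saline counts. The AP-1 members and the other immediate early genes lie to the right of 0 throughout, while the kinase and turnover lists spread to both sides. Fosl1, Fosb, Egr2 and Nr4a3 met the filter on low counts through their cisplatin counts alone, which nearly fixed their side.

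Each of the 8 members was called higher in all 15 alternative analyses, at an adjusted p of 0.00358 or less. The size of the change depended on the scale for the low members. After adding 1 to each FPKM value before taking log2, which compresses low values, the change was 1.72 for Fosb, 3.51 for Fosl1 and 3.99 for Atf3, and after adding 0.1 it was 4.18 for Fosb and 6.38 for Fosl1.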

How the data were processed

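Raw read counts per gene and FPKM values, both deposited by the authors, were used for 4 kidney libraries. The submitters' processing notes name GRCm38 as the build and list bcl2fastq, TopHat2 and edgeR, with no version. On the counting program, its use of strand and the FPKM lengths nothing is given in the sources used here. Groups came from the treatment label. Counts were fitted over all genes with edgeR 4.0.16 in R 4.3.3 (filterByExpr, TMM, quasi-likelihood F test, 2 residual degrees of freedom), with Benjamini-Hochberg adjustment over 17419 tested genes and calls at 0.05. SEs are the log2 fold change divided by the square root of its F statistic. For genes with few saline counts, such as Fosl1, Fosb and Atf3, they are narrower than the counting intervals and understate the uncertainty. Cisplatin libraries had TMM factors of 1.15 and 1.12, saline libraries 0.86 and 0.90, so changes are relative to a composition-scaled total. Counting intervals (95%, exact binomial) and the floor of 3 counts (0.111 to 0.145 CPM before scaling) cover counting error only. A single row had no symbol and was kept under its identifier.

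Replicates did not agree within sampling noise (chi-square over degrees of freedom 11.5 and 36.6). The members and gene lists were chosen with earlier results of these data known. Named genes were the 8 members, the 4 most abundant genes of each list and the nearest gene to each member, with exceptions stated and some listed genes not reported here. Coordinates and exon lengths came from GENCODE M21, on GRCm38, matched by identifier without version. Alternatives used edgeR with other scalings, filters, its exact test or a replicate block, DESeq2 1.42.0, limma 3.58.1 on log2 FPKM, and each library left out. The fit was tested on simulated data first.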

Additional observations from a re-analysis of the deposited data

How the results depend on the processing

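All 8 AP-1 members were called higher and 0 lower in each of the 14 planned analyses and in a fit on protein-coding genes alone, which was chosen after seeing the data. The count of all genes called lower was 6333, and it moved to 4207 with library size alone and to 3804 and 3784 with limma-trend on FPKM at pseudocounts of 0.1 and 1. The cause was not tested. Higher calls made up 50.6% of all calls in the analysis reported, 65.6% and 65.9% on FPKM, 68.4% without TMM factors and 56.5% after upper-quartile scaling. The median log2 fold change of all genes, 0.042 as reported, became 0.407 when the factors were left out and 0.159 for upper quartiles. The deviations of replicate 1 in the groups correlated at -0.0213 over genes. That value cannot settle whether libraries of the same number were handled together, which is unknown here. With a replicate block 8 members and 6382 genes were called higher and 6271 lower.

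Shares of the AP-1 pool moved when counts per kilobase of GENCODE exons replaced FPKM, since the exon lengths differ. In saline they were 4.51% for Fos, 0.0859% for Fosb, 3.13% for Fosl2, 19.1% for Jun, 19.4% for Junb, 52.1% for Jund, 1.53% for Atf3, 7.82% for the FOS family and 90.7% for the JUN family. After cisplatin they were 5.76% for Fos, 1.08% for Fosb, 6.67% for Fosl1, 5.63% for Fosl2, 18.5% for Jun, 24.2% for Junb, 22.5% for Jund, 19.1% for the FOS family and 65.1% for the JUN family. Saline counts of 10 or fewer in all limit the fold changes of Fosb and Fosl1.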

Other observations

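Fos, Jdp2 and Batf, which all encode bZIP proteins of the AP-1 type, lie in this order on the plus strand of chromosome 12 (GRCm38), within 235.2 kb that hold no other protein-coding gene of GENCODE M21. They were looked at together after the values were known. Jdp2, which encodes a repressor that pairs with JUN, lies 121.8 kb downstream of Fos, at 85599027 to 85639878, and was measured at 4.17 and 4.14 CPM in saline and 8.94 and 9.33 CPM in cisplatin libraries. Its log2 fold change was 1.14 (SE 0.16; edgeR quasi-likelihood adjusted p = 2.05e-06). Batf, a gene of lymphoid cells, lies 46.8 kb further, at 85686669 to 85709087, and was measured at 0.433 and 0.246 CPM against 0.886 and 0.771 CPM, a log2 fold change of 1.32 (SE 0.48; adjusted p = 0.0191). These values rest on 8 and 6 counts in saline and 21 and 20 counts in cisplatin libraries. Batf met the filter on low counts through its cisplatin counts alone, so its call carries little weight. Fos, at 2.45 (SE 0.12), had the largest change of the 3.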
